A study of Sus scrofa with 12 samples.

Results

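The genes described here encode cytokines of the interleukin 6 family, their receptors, the transcription factor STAT3 and its feedback inhibitor SOCS3. The 10 symbols are IL6, IL11, LIF, IL6R, IL6ST, IL11RA, LIFR, OSMR, SOCS3 and STAT3, out of 29150 loci in the deposited table. They were measured as RNA of whole left ovaries from 12 New French Yorkshire gilts, pigs (Sus scrofa) that had not yet farrowed. In the ES group 6 gilts cycled regularly and were killed in the third estrus, and in the NES group 6 of their full sisters had no recorded estrus. Checks for estrus began at 165 days of age, no animal carried a transgene or was given an agent according to the labels, and each library comes from 1 gilt. The stage within estrus at which ES ovaries were taken and the age of NES gilts at slaughter are not stated in the labels. Follicles, luteal tissue, stroma, vessels and immune cells all contribute to a whole ovary, and all 9 listed granulosa cell markers, FSHR and CYP19A1 among them, passed the expression filter.

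Cytokines of this family signal by bringing together a shared receptor chain, gp130 (the product of IL6ST), with a second chain that is particular to the ligand. JAK kinases bound to these chains then phosphorylate STAT3, which enters the nucleus and turns on target genes, among them SOCS3, whose product binds gp130 and the kinases and shuts the signal down. In mice, IL6 is made by cumulus and granulosa cells around ovulation and takes part in the expansion of the cumulus matrix.

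Of the 10 symbols, 8 stood as gene names in the table, while SOCS3 and IL11RA stood there as Ensembl identifiers that a name table and the table's own descriptions pair with these symbols. IL6R had 3 rows, LIFR and STAT3 had 2 each, and the row with the highest mean count over the 12 libraries was used. For STAT3 this row had a mean count of 13260 and the other, on the opposite strand, 5204.5. For IL6R the row used had a mean count of 1129, against 89.9 and 32.7 for the others, and for LIFR 17830, against 0.75. Rows were thus selected on the mean count over both groups and not on the difference between them. In Sscrofa11.1 the ligands lie on chromosome 9 (IL6, MSTRG.23879, 91506340 to 91511491), chromosome 6 (IL11, MSTRG.18875, 59539669 to 59544887) and chromosome 14 (LIF, MSTRG.7302, 47221486 to 47228273). The receptors lie on chromosome 4 (IL6R, MSTRG.15905, 95322434 to 95381338), chromosome 10 (IL11RA, MSTRG.2688, 32130894 to 32149477) and chromosome 16 (IL6ST, MSTRG.9681, 35101302 to 35151844; LIFR, MSTRG.9591, 23627693 to 23804684; OSMR, MSTRG.9593, 24041345 to 24102545). The genes were chosen by symbol with the ES and NES counts of these same libraries already compared, so every ES to NES value is a description, and p-values are adjusted over all loci tested and support nothing about the choice.

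Libraries held 58140547 to 68961955 counts. Levels are given as CPM, counts relative to library size with TMM factors, and as the FPKM values that the authors deposited, which also divide by length and serve for comparing genes with each other. Zero counts allowed a level of up to 0.0430 to 0.0519 CPM, depending on the library and for counting error only. Differences are log2 values, ES minus NES, with their standard error (SE), from the quasi-likelihood test of edgeR with p-values adjusted by Benjamini-Hochberg over the 20421 loci whose mean FPKM reached 0.5. Over all these loci the test called 193 at an adjusted p under 0.05, with 31 higher and 162 lower in ES (461 higher and 594 lower with DESeq2).

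The receptor IL6ST had the highest level per length, with a median of 11.6 FPKM over the 12 libraries. LIFR followed at 6.33 FPKM, SOCS3 at 5.46 FPKM, STAT3 at 5.01 FPKM, OSMR at 2.96 FPKM, IL6R at 2.13 FPKM and IL11RA at 2.00 FPKM. The ligands were the lowest, LIF with a median of 0.65 FPKM, IL6 with 0.25 FPKM and IL11 with 0.095 FPKM. Among the 9 pairs of neighbours in this order, IL6ST exceeded LIFR and STAT3 exceeded OSMR in 12 of 12 libraries (exact paired permutation test of log2 FPKM, two-sided, adjusted p = 0.0022 for both, from the smallest p that the test can give). OSMR exceeded IL6R in 9 of 12 libraries (same exact test, adjusted p = 0.0167), IL11RA exceeded LIF in 10 (0.0044) and LIF exceeded IL6 in 11 (0.0044). LIFR and SOCS3 did not differ beyond their spread (adjusted p = 0.880), nor did SOCS3 and STAT3 (0.461), IL6R and IL11RA (0.514) or IL6 and IL11 (0.214), by the same exact test. The pairs were formed from the order of the same FPKM medians. IL6 still exceeded IL11 in 11 of 12 libraries, with ES1 as the exception (IL6 0.18 FPKM and IL11 8.00 FPKM). By counts the order differed, with mean counts of 17830 for LIFR, 13260 for STAT3, 10619 for IL6ST and 2126 for SOCS3. The FPKM order thus rests also on the lengths by which the deposited FPKM values were divided, and their part in it was not tested.

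None of the 9 genes tested was called between ES and NES, where the background over all loci was 0.945% called. DESeq2 gave IL11 no p-value and called 0 of the other 8, with a background of 5.28% (2.31% higher and 2.97% lower in ES). At an unadjusted p under 0.05, edgeR had 2 of the 9, IL11 and STAT3, both higher in ES, against 16.3% of all loci in either direction and 9.5% higher in ES. All 9 log2 differences were above 0, as were 56.2% of all loci, with a median of 0.46 in these genes and 0.043 over all loci. In none of the 10 genes did the ES and NES libraries separate without overlap, which 1.42% of all loci did. IL6 lay under the expression filter, and IL11 passed it through 1 ES library, so neither the count nor the median describes all 10 genes.

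**Figure D1:**
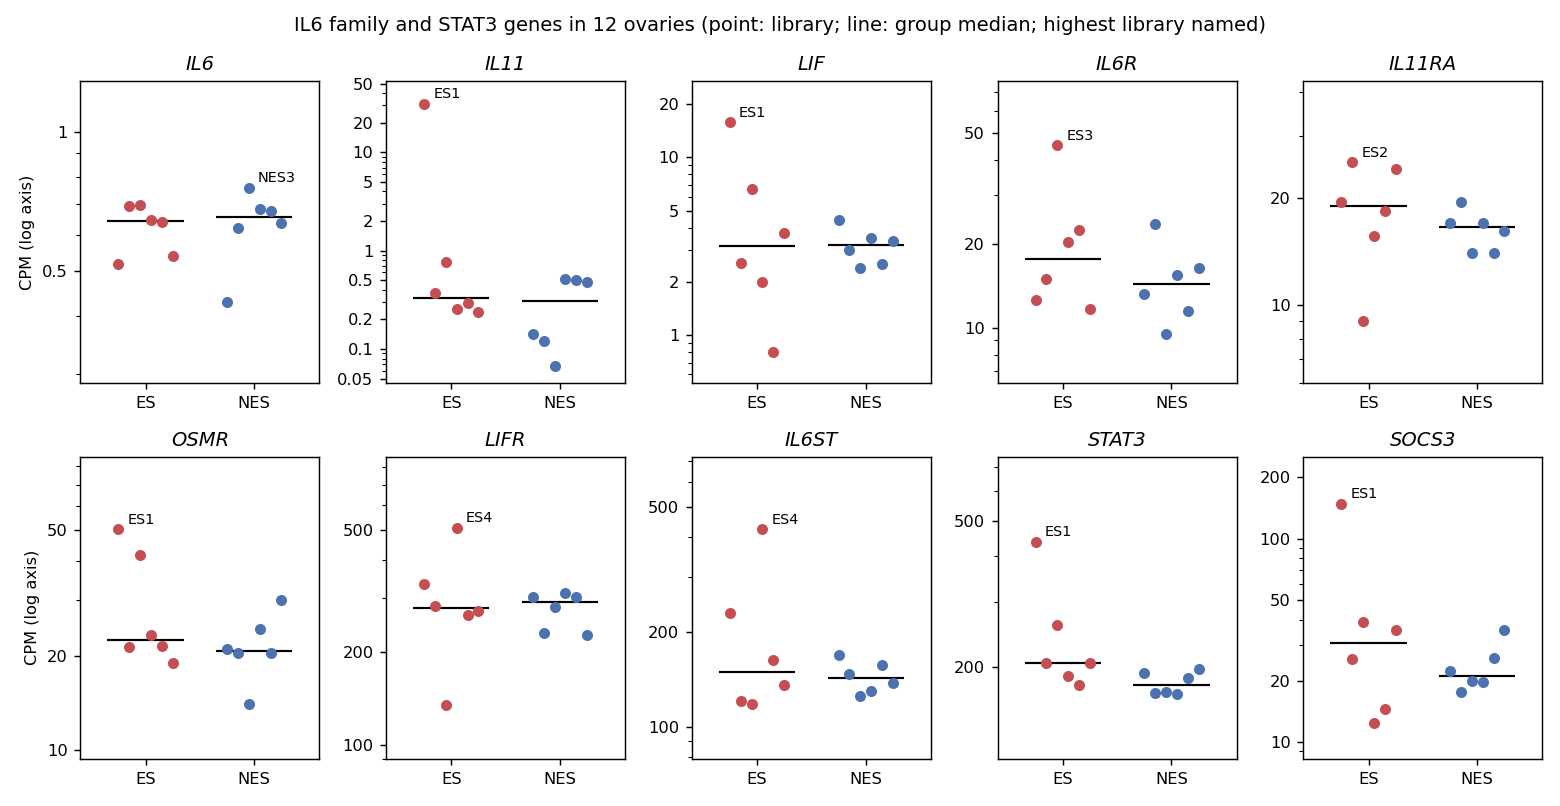
CPM of the 10 genes in each library on log axes, with 6 ES libraries left and 6 NES libraries right in each panel, 1 point per library, a line at the group median and the highest library named. ES1 is the highest library for IL11, LIF, OSMR, STAT3 and SOCS3, ES4 for IL6ST and LIFR and ES3 for IL6R. In several genes other ES libraries also lie outside the NES range. For STAT3, ES2, ES3 and ES6 lie above it, and for LIF and SOCS3, ES3 lies above and ES4 and ES5 below it.

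Of the ligands, IL6 itself had little RNA in any ovary. Its CPM ranged from 0.52 over a median of 0.64 to 0.69 in ES libraries, and from 0.43 over a median of 0.66 to 0.76 in NES libraries. These values rest on 30 to 45 counts per library, and the exact Poisson interval (95%, counting error only) was 0.35 to 0.74 CPM for ES1 and 0.29 to 0.61 CPM for NES1. The groups overlapped over nearly their whole range. IL6 was not tested in the filtered fit, and in a fit without the filter its log2 difference was -0.035 with an SE of 0.22 (adjusted p = 0.965 over 29150 loci).

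IL11, a cytokine known for its part in the preparation of the uterine lining in mice and women, was high in 1 ovary. ES1 held 1804 IL11 counts, which is 31.2 CPM (exact Poisson interval 29.8 to 32.7 CPM, counting error only). The other ES libraries had 0.24 to 0.76 CPM, and NES libraries ranged from 0.067 over a median of 0.31 to 0.52 CPM. The ES1 value was 41.2 times that of the next library, ES3. The group means were 5.52 ± 12.6 CPM over ES libraries, against 0.31 ± 0.22 CPM over NES libraries (SD, n = 6 each). The log2 difference was 4.17 ± 1.39 (SE, adjusted p = 0.172), and without ES1 it was 0.33 ± 0.55 (adjusted p = 0.805).

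LIF, the leukemia inhibitory factor that keeps mouse embryonic stem cells from differentiating, ranged from 0.80 over a median of 3.16 to 15.8 CPM in ES libraries. In NES libraries it ranged from 2.39 over a median of 3.20 to 4.45 CPM. ES1 was again the highest library and ES3 the second at 6.61 CPM, while ES5 was the lowest of all 12, so that ES libraries lay on both sides of the NES range. The medians of the groups were close, and the means were 5.25 ± 5.52 CPM for ES, against 3.21 ± 0.76 CPM for NES. The log2 difference was 0.71 ± 0.55 (adjusted p = 0.559), and -0.028 without ES1.

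Of the receptors, IL6ST, the shared signalling chain gp130, ranged from 119 over a median of 149 to 425 CPM in ES libraries, and from 126 over a median of 143 to 169 CPM in NES libraries. The highest library was ES4, 1.85 times the second, ES1, at 230.2 CPM. The other 4 ES libraries lay at 119 to 163 CPM, below the highest NES library, and ES3 and ES2 lay below all NES libraries. IL6ST had a log2 difference of 0.46 ± 0.29 (adjusted p = 0.459), and 0.087 without ES4.

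LIFR, which pairs with gp130 to bind LIF, followed the same 2 ovaries. It ranged from 135 over a median of 277 to 508 CPM in ES libraries, and from 227 over a median of 291 to 312 CPM in NES libraries. ES4 was again the highest and ES1, at 332 CPM, the second, while ES3 was the lowest of all 12. For LIFR the log2 difference was 0.12 ± 0.24 (adjusted p = 0.853). It turned to -0.10 without ES4, and limma on the deposited FPKM gave -0.066 to -0.047.

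OSMR, which joins gp130 in a receptor for oncostatin M, ranged from 19.0 over a median of 22.4 to 50.5 CPM in ES libraries. In NES libraries it ranged from 14.1 over a median of 20.7 to 30.0 CPM. ES1 at 50.5 CPM and ES3 at 41.8 CPM lay above all NES libraries, and the other 4 ES libraries lay at 19.0 to 23.3 CPM, inside the NES range. OSMR had a log2 difference of 0.45 ± 0.26 (adjusted p = 0.426), 0.23 without ES1 and 0.32 without ES3. The OSMR locus overlaps a joined FYB1 and RICTOR locus on the opposite strand, and the labels do not state the strand setting of the counting.

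IL6R, the chain that binds IL6, had its highest value in another ovary. It ranged from 11.6 over a median of 17.7 to 45.0 CPM in ES libraries and from 9.49 over a median of 14.4 to 23.5 CPM in NES libraries. ES3 held the highest value, 1.92 times that of the next library, NES2, while ES1 had 12.6 CPM, among the lower libraries. The log2 difference was 0.50 ± 0.33 (adjusted p = 0.482), and 0.13 without ES3.

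IL11RA, the chain that binds IL11, ranged from 8.98 over a median of 19.0 to 25.2 CPM in ES libraries and from 14.0 over a median of 16.5 to 19.5 CPM in NES libraries. ES2 and ES6, at 25.2 and 24.2 CPM, lay above all NES libraries and ES3 below them. In ES1, the ovary with the high IL11 value, IL11RA had 19.5 CPM, which is inside the NES range. IL11RA had a log2 difference of 0.20 ± 0.21 (adjusted p = 0.683), which was 0.090 without ES2, 0.11 without ES6 and 0.34 without ES3 (adjusted p = 0.311).

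STAT3, the transcription factor on which these receptors converge, varied little in NES ovaries, from 169.6 over a median of 179 to 198 CPM. In ES libraries it ranged from 179.5 over a median of 206 to 438 CPM. ES1, ES3, ES6 and ES2 lay above every NES library, and ES4 and ES5 lay inside the NES range. The mean STAT3 level was 246 ± 97.7 CPM over ES libraries, against 182 ± 12.8 CPM over NES libraries (SD, n = 6 each), with a log2 difference of 0.44 ± 0.20 (adjusted p = 0.292). Without ES1 the difference was 0.19 ± 0.11 (adjusted p = 0.393).

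The second STAT3 row (MSTRG.4134), on the opposite strand inside the STAT3 locus, had a mean of 91.5 ± 30.2 CPM for ES, against 76.0 ± 10.0 CPM for NES. Its highest library was also ES1, at 149.9 CPM, and its log2 difference was 0.27 ± 0.18 (adjusted p = 0.499). The STAT3 locus (MSTRG.4133, Sscrofa11.1 chromosome 12, 20395383 to 20472993, plus strand) also overlaps the end of STAT5A on the minus strand. Reads of overlapping loci may have been shared between them.

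SOCS3 (MSTRG.3793, chromosome 12, 3643423 to 3647527), the inhibitor that STAT3 induces, ranged from 12.4 over a median of 30.6 to 148 CPM in ES libraries. In NES libraries it ranged from 17.7 over a median of 21.2 to 35.5 CPM. ES1 was the highest of all 12 libraries at 3.80 times the second, ES3, which had 39.1 CPM. ES4 and ES5, at 12.4 and 14.6 CPM, lay below every NES library, so the ES ovaries held both the highest and the lowest SOCS3 values. The log2 difference was 0.96 ± 0.52 (adjusted p = 0.385), and 0.11 ± 0.30 without ES1 (adjusted p = 0.896).

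Between ovaries, the ES group was the more variable one. The SD of log2 CPM was larger in ES than in NES for 9 of the 9 genes tested, with a median ratio of 3.57, and for 74.6% of all loci tested, with a median ratio of 1.46. IL11, with a ratio of 5.40, passed the expression filter through its high value in ES1, so its wider spread in ES was fixed by that admission. IL6, under the filter, was the exception among the 10, with a ratio of 0.66. ES1 was the highest library for 5 of the 10 genes and for 13.5% of all loci tested, ES4 for 2 genes and 10.2% of loci, and ES3 for 1 gene and 19.7% of loci. ES3 was also the lowest library for IL6ST, IL11RA and LIFR.

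**Figure D2:**
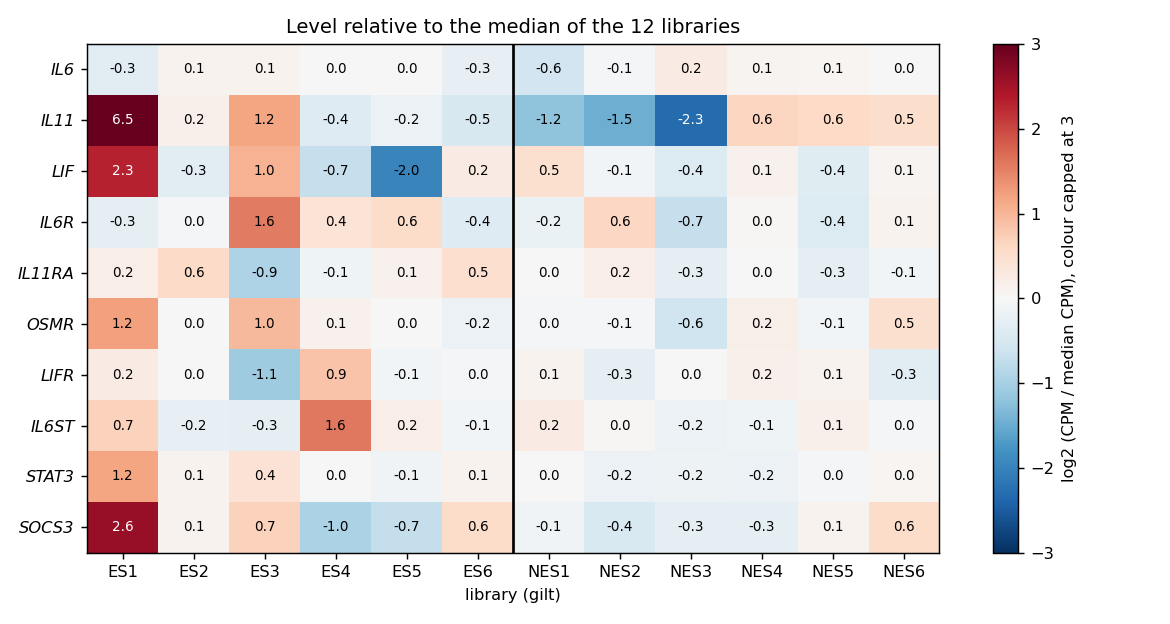
log2 of CPM over the median of the 12 libraries, for 10 genes (rows) and 12 libraries (columns, 6 ES left and 6 NES right), with the value printed in each cell and the colour capped at 3. ES1 stands out for IL11, LIF, OSMR, STAT3 and SOCS3, ES3 for IL6R, IL11, LIF and OSMR, and ES4 for IL6ST and LIFR with low SOCS3.

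Several fitted differences moved when a single ovary was left out. Without ES1 the median log2 difference of the 9 genes was 0.19, without ES3 0.42 and without ES4 0.51. None of the 9 was called without ES1 (1.36% of all loci called, 0.181% higher and 1.18% lower) or without ES3 (0.416%, with 0.108% and 0.309%). Without ES1 and ES3 together, an alternative chosen after the values were seen, it was 0.093, where all loci had 0.014. In that fit IL11, LIF, OSMR and SOCS3 had log2 differences of -0.084, -0.50, -0.037 and -0.11, IL6ST had 0.53 and LIFR 0.25, and 0 of the 9 were called (1.06% of all loci, 0.245% higher and 0.818% lower).

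**Figure D3:**
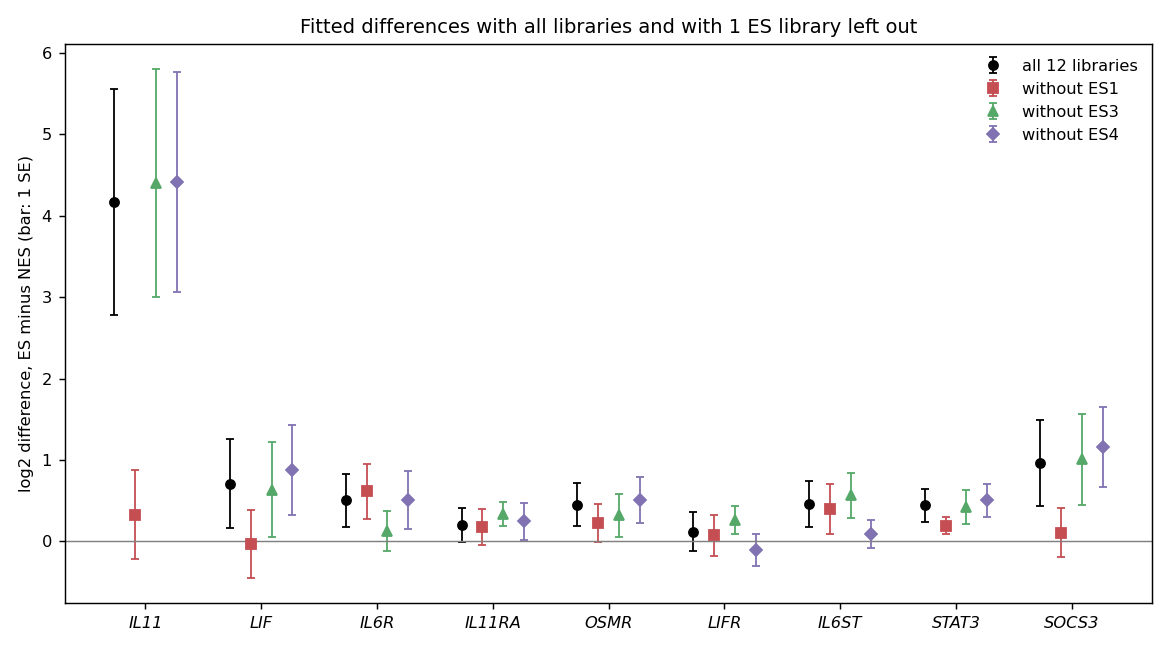
Log2 difference, ES minus NES, of the 9 tested genes (bars are 1 SE) from edgeR with all 12 libraries and without ES1, ES3 or ES4. IL11 stands at 4.17 with all libraries and at 0.33 without ES1, SOCS3 at 0.96 and 0.11, IL6ST at 0.46 and at 0.087 without ES4, and IL6R at 0.50 and at 0.13 without ES3.

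Cell type markers differed between the same ovaries, and their part in these values was not tested. Of 12 listed macrophage and monocyte markers, 11 had a row of their own and 10 were tested, and all 10 were highest in ES3. Their summed level was 1396 CPM in ES3, 109 to 155 CPM in the other ES libraries and 91.7 to 203 CPM in NES libraries, and no marker was at 0 in any library. The 5 measured neutrophil markers, of which 1 was tested, summed to 38.2 CPM in ES3, 1.51 to 2.89 CPM in the other ES libraries and 1.36 to 3.58 CPM in NES libraries. CSF3R made up 34.6 CPM of the ES3 sum. MPO and MMP8 of the same list had no counts in ES3, while MMP8 had 0.39 CPM in ES4 and 0.050 to 0.16 CPM in NES libraries. S100A8 had counts in ES3 and none in the other 11 libraries. In bulk RNA, fewer cells of a type and less RNA per cell cannot be told apart.

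ES1 had the highest summed level of 5 of the 11 marker lists, but single genes carried several of these sums. Its 9 granulosa markers summed to 4987 CPM, against 403 to 4515 CPM in the other ES libraries and 1083 to 3443 CPM in NES libraries, and the inhibin gene INHA made up 3553 CPM of the ES1 sum. FSHR, FST, IHH and FOXL2 of the same list lay below every NES library in ES1, at 39.4, 17.2, 13.1 and 71.3 CPM, and IHH was called lower in ES (log2 -3.01, adjusted p = 0.042 in edgeR). Its 7 theca markers summed to 3016 CPM, against 261 to 2853 CPM in the other ES libraries and 474 to 809 CPM in NES libraries, with 1515 CPM from CYP11A1. HHIP and GLI1 of that list, at 7.49 and 6.83 CPM in ES1, lay below every NES library and were called lower in ES (log2 -2.37 and -1.94, adjusted p = 0.0358 and 0.0337). Stromal markers summed to 12211 CPM in ES1 and 2769 to 10161 CPM in NES libraries, with 11799 CPM of the ES1 sum from COL1A1, while DCN had its lowest value of the 12 libraries there (120.9 CPM). Smooth muscle and pericyte markers summed to 4038 CPM in ES1 and 1283 to 2718 CPM in NES libraries, and red blood cell markers to 6.11 CPM and 0.82 to 3.69 CPM. In ES6 the granulosa and theca sums were 4515 and 2853 CPM, with FSHR, FST, IHH, HHIP and GLI1 again below every NES library. INHBB lay below every NES library in ES6 (124 CPM) but not in ES1 (315 CPM), and FOXL2 did not in ES6 (138 CPM). SOCS3 had 35.4 CPM and IL11 0.24 CPM in ES6. ES3 had the lowest granulosa and theca sums of the 12 libraries, at 403 and 261 CPM, though its CYP11A1 level (193.7 CPM) lay above every NES library. ES4, with the highest IL6ST and LIFR values, was the highest library of 0 of the 11 marker lists. The remaining sums were 816 to 2556 CPM in ES and 492 to 781 CPM in NES for luteal markers, 632 to 972 and 432 to 996 CPM for endothelial markers, 8.37 to 27.1 and 7.41 to 12.5 CPM for lymphocyte markers, and 10.2 to 248 and 3.63 to 18.3 CPM for epithelial markers. Defining markers at 0 in at least 1 library were CD4 and MS4A1 of the lymphocyte list, S100A9, MPO and MMP8 of the neutrophil list, CLDN4, KRT18 and FOXJ1 of the epithelial list, and HBB and SLC4A1 of the red blood cell list.

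Whether SOCS3 follows the ligands was examined across libraries on log2(CPM + 0.5), with 3 relations. SOCS3 and LIF had Pearson's r = 0.88 and Spearman's rho = 0.73 over the 12 libraries (permutation tests, adjusted p = 0.0018 and 0.0253). Without ES1 and ES5, the libraries farthest from the LIF median, r was 0.66 (permutation p = 0.0378, adjusted 0.113), and the relation no longer passed. Without ES1 alone r was 0.70 (permutation test, adjusted p = 0.0393), but rho was 0.65 and did not pass (permutation test, adjusted p = 0.0996). Within the 6 ES libraries r was 0.94 (exact permutation p = 0.0042, adjusted 0.0125) and rho was 0.94 (exact permutation p = 0.0167, adjusted 0.05). Within the 6 NES libraries r was 0.083 (exact p = 0.893, adjusted 0.914). The difference between the groups was not tested, and LIF spanned a narrower range in NES. All p-values here are adjusted over the 3 relations only, and the share of all loci with a like r to SOCS3 was not examined. Loci outside the family were closer, with r = 0.93 for HGH1 to LIF and 0.94 for ECE1 to SOCS3 over the 12 libraries.

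SOCS3 and IL11 had r = 0.88 and rho = 0.57 over the 12 libraries (permutation tests, adjusted p = 0.0075 and 0.0877). Without ES1 and ES3 r was 0.31 (permutation p = 0.378, adjusted 0.567), and without ES1 alone it was 0.50 (adjusted p = 0.176), so the relation over the 12 libraries did not hold without ES1. Within ES r was 0.89 (exact permutation p = 0.0264, adjusted 0.0396), but rho was 0.66 (exact permutation p = 0.175, adjusted 0.26) and did not pass. Within NES r was 0.58 (exact p = 0.236, adjusted 0.708). SOCS3 and IL6 had r = -0.34 and rho = -0.13 (permutation tests, adjusted p = 0.258 and 0.697), with -0.62 within ES and -0.049 within NES (exact p = 0.189 and 0.914, adjusted 0.189 and 0.914). Without ES1 and NES1, r for IL6 was -0.14 (permutation p = 0.707, adjusted 0.707).

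**Figure D4:**
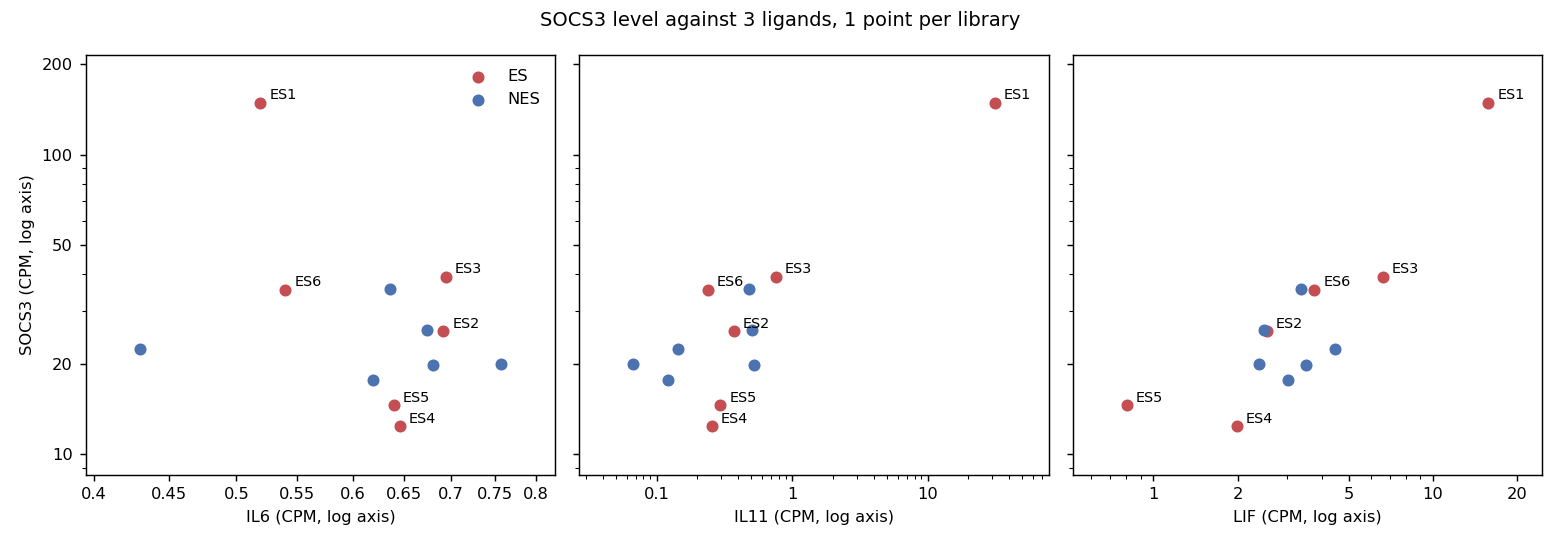
SOCS3 CPM against IL6, IL11 and LIF CPM on log axes, 1 point per library, red for ES (named) and blue for NES. In the LIF panel the 6 ES libraries run from ES5 and ES4 at low SOCS3 up to ES1 (r = 0.94 on the log2 scale), in the IL11 panel ES1 lies alone at the right, and in the IL6 panel no line through the points is seen.

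Beyond these 10 genes, 77 genes in 9 lists of the pathway and its surroundings were examined, of which 56 were tested, 14 lay only in a joined locus or had no row and 7 were under the filter. CD44, the hyaluronan receptor, rose in ES, and no other listed gene was called (background 0.152% higher and 0.793% lower). DESeq2 called 6, among them CISH, CEBPB, TIMP1 and CD44, where it called 5.28% of all loci (2.31% higher and 2.97% lower in ES). The ES and NES groups did not overlap for SOCS5, PTPN1 and CD44 (1.42% of all loci).

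CD44 had a mean of 65.0 ± 33.7 CPM for ES, against 11.2 ± 4.19 CPM for NES (SD, n = 6 each; log2 2.54 ± 0.35, adjusted p = 0.0337). Its call was lost in the fits without ES2, ES4, ES6 or any of NES1 to NES5, without ES3 and ES6 together, and with the replicate number as a block. Each of these fits called 0 or 1 of all loci, and without ES4 the CD44 difference was 2.50 (edgeR, adjusted p = 0.080). CD44 belongs to the ovulatory and cumulus matrix list, in which 1 of 7 tested genes rose and the median log2 difference was 2.28 (1.26 without ES4). PTGS2, the prostaglandin synthase of ovulation, had 213 CPM in ES4, 1.35 to 2.76 CPM in the other ES libraries and 1.10 to 1.98 CPM in NES libraries. AREG, an epidermal growth factor family ligand that spreads the ovulatory signal to the cumulus, had 73.6 CPM in ES1, 0.11 to 1.10 CPM in the other ES libraries and 0.048 to 0.27 CPM in NES libraries (log2 6.81, adjusted p = 0.0932; 1.92 without ES1). Like IL11, AREG was thus highest by far in ES1. AREG and PTGS2 each passed the expression filter through 1 ES library, so the list median includes genes admitted by their high value in ES.

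Of the other ligands of the family 0 of 3 tested were called, with a median of 0.26. CLCF1, which acts through the ciliary neurotrophic factor receptor, lay above all NES libraries in 5 of 6 ES libraries, with 1.87 to 4.46 CPM in ES, against 1.33 to 1.88 CPM in NES (log2 0.80 ± 0.26, adjusted p = 0.155). CTF1, cardiotrophin 1, had a log2 difference of 0.26 (adjusted p = 0.720). Among 3 other receptors 0 were called (median 0.13), IL31RA at 0.28 and IL27RA at 0.13, both highest in ES3. Without ES3, IL31RA had -0.0069 and IL27RA -0.096.

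Of the 2 sheddases, proteases that release IL6R and other proteins from the cell surface, 0 were called. ADAM17 had 350.5 CPM in ES1, 111 to 198 CPM in the other ES libraries and 107 to 126 CPM in NES libraries (log2 0.58 ± 0.25, adjusted p = 0.270; 0.26 without ES1). ADAM10 was highest in ES4, at 137 CPM, and had a log2 difference of 0.23 (adjusted p = 0.651), which was -0.021 without ES4.

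Of the 4 JAK kinases 0 were called, with a median of 0.35. JAK1 lay above all NES libraries in 5 of 6 ES libraries, with means of 336 ± 64.0 CPM for ES, against 258 ± 25.9 CPM for NES (log2 0.38 ± 0.13, adjusted p = 0.173). JAK2 did so in 4 of 6 (log2 0.35 ± 0.14, adjusted p = 0.236), and both were highest in ES1. Of 4 other STAT factors 0 were called, with a median of 0.35. STAT6, the factor of interleukin 4 signals, was highest in ES3 (log2 0.50 ± 0.19, adjusted p = 0.225).

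Of 12 pathway inhibitors 0 were called and the median was 0.11. PTPN1, a phosphatase that acts on JAK kinases, had 74.6 ± 13.0 CPM for ES, against 58.4 ± 1.00 CPM for NES, and 6 of 6 ES libraries lay above all NES libraries (log2 0.35 ± 0.11, adjusted p = 0.148). CISH, a relative of SOCS3, had a mean of 7.98 ± 3.51 CPM for ES, against 4.11 ± 1.25 CPM for NES (log2 0.96 ± 0.28, adjusted p = 0.129). It was high in ES1 and ES4, at 12.5 CPM in both, while SOCS3 was high in the first and lowest in the second.

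Of 17 STAT3-responsive genes 0 were called, 16 had differences above 0 and the median was 0.41 (0.15 without ES1 and ES3 together). TIMP1, an inhibitor of matrix proteases, ranged from 33.6 over a median of 120.4 to 410.4 CPM in ES libraries and from 19.9 over a median of 28.4 to 115 CPM in NES libraries (log2 2.17 ± 0.66, adjusted p = 0.140). It was highest in ES4, where SOCS3 was lowest, and second in ES3. CEBPB, a transcription factor of the acute phase response, had a mean of 56.6 ± 28.9 CPM for ES, against 27.9 ± 7.98 CPM for NES (log2 1.02 ± 0.33, adjusted p = 0.158). Of this list, 10 genes were highest in ES1 and 6 in ES3.

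Of 4 tested inducers of IL6 0 were called, with a median of 0.21. TLR4, the receptor for bacterial lipopolysaccharide, had 52.9 CPM in ES3, 3.05 to 5.48 CPM in the other ES libraries and 2.13 to 6.51 CPM in NES libraries (log2 1.45 ± 0.75, adjusted p = 0.358; -0.22 without ES3). NFKB1 had a log2 difference of 0.20 (adjusted p = 0.481). TNF and IL1A were under the filter.

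**Figure D5:**
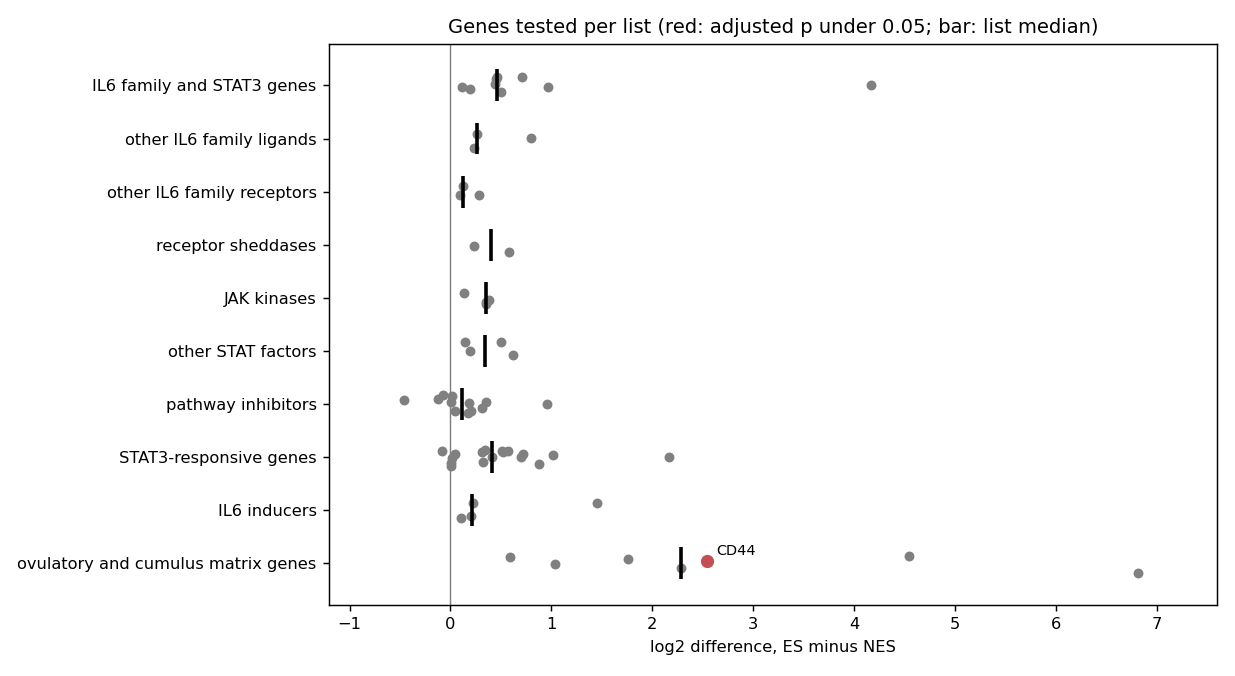
Log2 difference, ES minus NES, of each tested gene (points) by list (rows), with a bar at the list median and genes with an adjusted p under 0.05 named and in red. CD44 in the ovulatory and cumulus matrix list is the only red point, list medians run from 0.11 for pathway inhibitors to 2.28 for that list, and the 9 tested genes of the IL6 family and STAT3 have a median of 0.46.

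Loci with the most similar pattern over the 12 libraries were sought among the 13403 named loci whose mean FPKM reached 1, by Pearson's r of log2(CPM + 0.5), as a description. For STAT3 the most similar was NFIL3 (MSTRG.6796), a basic leucine zipper transcription factor, with r = 0.98 and rho = 0.95, and r = 0.89 without ES1 and ES3. NFIL3 had 97.8 CPM in ES1 and at most 37.0 CPM elsewhere. CHMP2B, a membrane remodelling protein, and UVRAG, an autophagy protein, followed at r = 0.96 each, with 0.57 and 0.62 without ES1 and ES3. A second NFIL3 row (MSTRG.6795) was among the 3 most similar to SOCS3 (r = 0.92), beside ECE1, which makes endothelin (0.94), and SPRY1, an inhibitor of receptor tyrosine kinase signals (0.92). Without ES1 and ES4 these were 0.88, 0.73 and 0.90.

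For LIF the most similar loci were HGH1 (r = 0.93), the ribosome assembly gene BOP1 (0.93) and the teneurin gene TENM1 (0.92), with 0.85, 0.76 and 0.87 without ES1 and ES5. For IL6, PPP1R21 (0.92), PHF14 (0.90) and the thyroid hormone receptor gene THRA (0.90) came first, with 0.80, 0.83 and 0.74 without ES1 and NES1. IL6 had only 30 to 45 counts per library, and the part of counting error in its pattern was not tested. PPP1R21, PHF14 and THRA were all at loci with at most 2.12 CPM in any library. None of these loci was called between ES and NES.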

How the data were processed

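The authors deposited a table with raw counts and FPKM values per locus and library, per the file headers. Per the labels' protocols, ribosomal RNA was removed from Trizol-extracted total RNA and dUTP kept the strand in the libraries. Tools in the submitters' processing notes are TopHat, HISAT2, FastQC and cutadapt, and the build is Sscrofa11.1; the sources used here give no counting program or annotation. Every count and FPKM column was matched to a sample by its title. Counts were tested with edgeR 4.0.16 (TMM factors, no covariate; SE is the difference over the square root of F), DESeq2 1.42.0 and limma 3.58.1 in R 4.3.3, leaving out loci whose mean FPKM was under 0.5. The scripts were checked on simulated counts. Correlations used 100000 resamples, or all orders within a group, with Python 3.11.15 and scipy 1.17.1. The genes and lists were chosen with earlier results of these data known. Named were the 10 genes, listed pathway genes that were called, the 2 with the smallest p-values in each list, and the 3 most similar loci of IL6, LIF, SOCS3 and STAT3; others (SOCS5, PTGS2, TNF, IL1A, single markers) were named after their values were seen. Alternatives were other scaling, tools, pseudocounts, filters, rows of a symbol, a block and left-out libraries. Protein and promoter sequences were not used here, and 1 gene that this rule names is not reported.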

Additional observations from a re-analysis of the deposited data

Results flagged for a closer look

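In 56 sets of 6 libraries (28 genes, ES and NES apart), 13 had a library whose gap to its nearest neighbour was large relative to the whole range of the group. These were 11 of 28 sets in ES and 2 of 28 in NES, where the same rule marked 17.6% of all loci tested in ES and 8.53% in NES, and chance alone marks about 1 in 20 for normally spread values. ES1 stood apart in ES for IL11 (gap over range 0.983, 31.2 CPM and 0.76 CPM in the next library), SOCS3 (0.804), STAT3 (0.688), ADAM17 (0.637) and AREG (0.986). ES3 stood apart for IL6R (0.678), IL31RA (0.659), STAT6 (0.665) and TLR4 (0.951), and ES4 for IL6ST (0.635) and ADAM10 (0.697). Among NES libraries, NES6 stood apart for TIMP1 (0.831, 115 CPM and 35.9 CPM in the next library) and NES3 for AREG at very low counts (0.763, 0.27 CPM and 0.10 CPM).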

How the results depend on the processing

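None of the 9 tested genes of the IL6 family and STAT3 was called in any of the 214 gene-by-alternative values (DESeq2 gave IL11 no p-value), and 205 of these kept the direction of the difference. The 9 that turned were IL11 (-0.084), LIF (-0.50), OSMR (-0.037) and SOCS3 (-0.11) without ES1 and ES3 together, LIF without ES1 (-0.028; up to 0.94 with another single library left out), and LIFR without ES4 (-0.10; up to 0.26 with another left out) and with limma on log2(FPKM + 0.5), log2(FPKM + 0.1) and log2(FPKM + 1) (-0.056, -0.066 and -0.047). Limma with the pseudocount of 0.1 shifted the median of all loci by -0.11, and relative to the median of all loci the 9 genes then stood at 0.34, against 0.42 in edgeR. The cause of these changes was not tested. The number of loci called was 1055 with DESeq2, 337, 334 and 319 with limma at pseudocounts of 0.5, 0.1 and 1, 28 without a filter, 1 without ES3 and ES6 together, and 0 to 415 with 1 library left out. It was 0 without each of ES2, ES4, ES6, NES1, NES3, NES4 and NES5, 1 without NES2, 68 without ES5, 85 without ES3 and 415 without NES6. Listed pathway genes called were 6 with DESeq2, 0 without ES3 and ES6 together, and 0 to 2 with 1 library left out (TIMP1 and CD44 without NES6). With the replicate number as a block, 0 loci and 0 listed genes were called. Same-numbered libraries deviated together (correlation over 0.1) in 2 of 6 pairs, from -0.028 to 0.24. These 2, ES1 with NES1 (0.24) and ES5 with NES5 (0.23), were the highest of all ES to NES correlations, and ES3 with NES2 came next at 0.11. The labels do not say that the numbers mark litters, so the main fit used no block. Whether same-numbered gilts are sisters was not settled by these correlations. For SOCS3, r with IL11 was 0.31 without the 2 farthest libraries and 0.58 within NES, and with LIF 0.66 and 0.083, without passing the test. At 30 to 45 counts of IL6 per library, small differences of IL6 were not detectable.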

Other observations

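LIFR and OSMR lie 236660 bases apart on chromosome 16, and ES3 had the lowest LIFR value of the 12 libraries (135 CPM) and the second highest OSMR value (41.8 CPM). LIF and the oncostatin M gene OSM lie 14500 bases apart on chromosome 14. OSM was highest in ES3, at 2.48 CPM, and had 1.37 CPM in ES1, where LIF had 15.8 CPM. The mean of OSM was 1.47 ± 0.62 CPM for ES, against 1.25 ± 0.72 CPM for NES (SD, n = 6 each; log2 0.24 ± 0.44, adjusted p = 0.836).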
